A study of Mus musculus with 3 samples.

Results

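Keratins were represented on the Agilent mouse array by 50 probes for 42 genes, among 41534 gene spots of the design. They were taken as all gene probes whose listed name began with Krt followed by a digit, older forms included, while the keratin-associated proteins were left out. Of the 50 probes, 38 took their name from a RefSeq accession, 10 from the listed symbol and 1 from a synonym, and the Krt85 probe kept its listed name. A probe listed in lower case as krt86 fell outside the choice. By textbook expression pattern, 7 of the genes were simple epithelial keratins, 3 were keratins of the basal squamous layer, 13 were keratins of differentiated or wounded squamous epithelium, 16 belonged to hair and its inner root sheath, and 3 had no class.

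The study set tumours of mice transgenic for AID, the cytidine deaminase that mutates immunoglobulin genes in B cells, against tumour-free tissue. Liver tumour was set against nontumour liver of the same AID Tg mouse, and gastric tumour against nontumour stomach of the same AID Tg mouse. Lung tumour of an AID Tg mouse was set against normal lung of a Wt mouse, so in lung the transgene and the tumour cannot be told apart. Each organ had 1 array with 1 sample per channel, so the differences below carry neither a replicate check nor a test. The promoter of the transgene and the strain, age and number of the mice are unknown from the labels.

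Keratins are the intermediate filament proteins of epithelia, and each filament pairs a type I with a type II chain. Krt8 and Krt18 form the filaments of simple epithelia such as hepatocytes and gland cells, joined in ducts and mucosa by Krt7, Krt19, Krt20 and Krt23. Stratified squamous epithelia make Krt5, Krt14 and Krt15 in their basal cells and switch to Krt1 and Krt10 or to Krt4 and Krt13 as the cells differentiate. Mouse stomach carries both kinds of lining, a squamous forestomach and a glandular part, while liver and the alveoli of lung are lined by simple epithelium.

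Signals on the liver and stomach arrays are mean spot intensities in scanner units, and differences are log2 ratios of Cy5 over Cy3 after background correction and loess, a curve that removes the dependence of the ratio on brightness. The labels put the tumour in Cy3 and the control tissue in Cy5. The authors' deposited table places Cy5-high spots under its headings for genes raised in cancer, which makes Cy5 the likely tumour channel. Values are therefore given by channel, positive where Cy5 was brighter, and by the dye labels each direction would read the other way round as tumour and control. The error of a gene is the SD between its probes or, with 1 probe, the error of the scanner software on the log2 scale, and neither covers the spread between mice.

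The negative control spots set the floor of the signals. Their 95th percentile was 139 in Cy3 and 77.1 in Cy5 on the liver array, and 133 and 72.3 on the stomach array. In Cy5, 33 of the 50 keratin probes exceeded 2 times that percentile in stomach and 24 did in liver, beside 55.1% and 49.2% of all gene spots. In Cy3, 23 did in stomach and 9 in liver, beside 25.2% and 25.6% of all gene spots. Counting either channel, 22 probes did in both organs and 15 in neither. After the spot filters, 48 probes for 41 genes were measured in stomach and 46 probes for 39 genes in liver.

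On the liver array most keratins were dim, with 9 of 50 probes past 2 times the control percentile in Cy3. The offset pulls ratios of dim probes towards 0, so small ratios there say little. None of the 39 measured keratin genes was 2-fold apart, where 0.223% of all 25606 measured genes were (0.152% brighter in Cy5 and 0.0703% in Cy3), and the keratin median was 0.02 beside 0.01 over all genes. The lack of a 2-fold keratin is thus near the share over all genes. The brightest keratins were the hepatocyte pair. Krt18 had 14400 in Cy3 and 18500 in Cy5, and the probes of Krt8 had 7790 and 8830, and 9400 and 10000. After loess these gave -0.31 (scanner error 0.16) for Krt18 and -0.52 (SD 0.07, 2 probes) for Krt8. Both Krt8 spots stand in the authors' deposited down list for liver, which holds 1.04% of all gene spots, at -0.54 and -0.46. The sign of the Krt18 value depends on the curve: with the median of the array as the only centre it was 0.10 and that of Krt8 was -0.13. Spots as bright as these shifted by 0.40 and 0.39 between both scalings.

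Keratins of bile duct and mucosa lay near the floor in liver. Krt19 had 162 in Cy3 and 113 in Cy5 (ratio -0.08, scanner error 1.1), and Krt23 had 176 and 116 (-0.27). The probes of Krt7 had 199 and 168, and 148 and 97.6 (mean -0.07). None of 7 bile duct marker genes was 2-fold apart in liver, and their median was 0.12. Krt20, a keratin of gastric and intestinal surface cells, had the highest keratin ratio in liver at 0.71, from 160 in Cy3 and 206 in Cy5, with a scanner error of 0.59. It passed 2-fold under 2 of the other settings. The 3 basal keratins lay between -0.03 and 0.14, and the 13 differentiated squamous keratins between -0.25 and 0.47. The highest of these was Krt2, an epidermal keratin, whose probes gave 0.78 and 0.16. Its brighter probe had 213 in Cy3 and 350 in Cy5 and is the single keratin spot of the authors' deposited up list for liver, at 1.07 (the up list holds 1.25% of all gene spots). Hepatocyte markers, as a check of the tissue, had median signals of 2090 and 2720 and none was 2-fold apart.

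On the stomach array the keratins separated by class. Of 41 measured keratin genes 15 were 2-fold apart, against 2.29% of all genes. Of these 3 were at least 2-fold brighter in Cy5, all of them simple keratins, and 12 were brighter in Cy3, all of them squamous. Over all 25322 measured genes, 0.873% were 2-fold brighter in Cy5 and 1.41% in Cy3. The median was 0.43 over 7 simple keratins, -2.06 over 3 basal keratins, -1.44 over 13 differentiated squamous keratins and 0.02 over 15 hair keratins, beside 0.00 over all genes. In bulk tissue, fewer cells of a type and less RNA per cell cannot be told apart. With median centring in place of loess the simple median was 1.68, the basal median -1.30 and the differentiated median -1.01, and without saturated spots the simple median was 0.86. With median centring the split of the 2-fold keratins was 6 in Cy5 to 9 in Cy3, and over all genes 1017 to 235 in place of 221 to 358. With the ratios of the scanner software it was 6 to 12, and 1093 to 1049 over all genes.

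**Figure D1:**
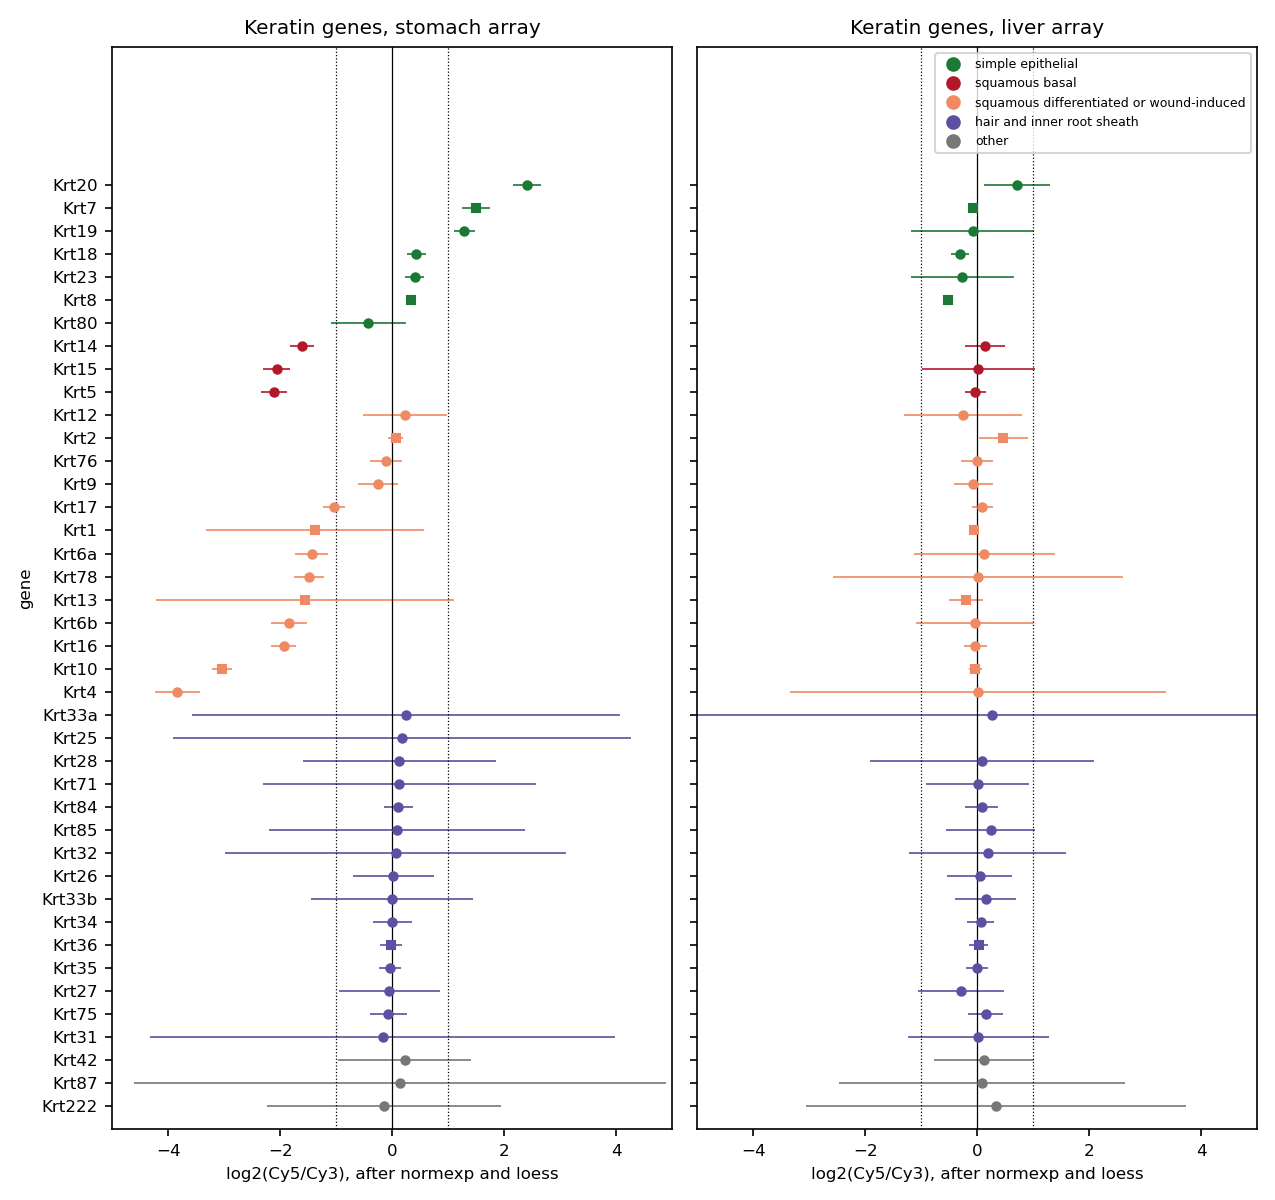
Log2 ratio of Cy5 over Cy3 for each keratin gene on the stomach array (left) and the liver array (right), coloured by class, with dotted lines at 2-fold. Squares are means of 2 probes with their SD, circles are single probes with the scanner error, and bars that reach the edge run beyond it. In stomach Krt20, Krt7 and Krt19 lie to the right of the dotted lines and 12 squamous keratins to the left, while in liver no gene passes either line.

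Among the simple keratins of stomach, Krt20, Krt7 and Krt19 passed 2-fold, and Krt23, also a keratin of ducts and mucosa, did not. Krt20 had 2520 in Cy3 and 36500 in Cy5 and a ratio of 2.41 (5.33-fold, scanner error 0.25). Both Krt7 probes were brighter in Cy5, from 494 to 2980 and from 4240 to 29700, with ratios of 1.68 and 1.32 (mean 1.5, SD 0.25). Krt19, a keratin of ducts and glands, had 7100 in Cy3 and 52000 in Cy5 and a ratio of 1.29 (2.44-fold, scanner error 0.19). These 3 passed 2-fold under each of the 8 other planned settings, but their size did not hold: with median centring in place of loess they were 3.46 for Krt20, 2.38 for Krt7 and 2.46 for Krt19. Of the markers of duct-like epithelium measured beside them, 2 of 7 were 2-fold brighter in Cy5, Cftr at 1.60 and Epcam at 1.12. Over all genes the share was 0.873%.

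The general simple pair ran into the ceiling of the scanner in Cy5, so its ratios have no rank against those of Krt20, Krt7 and Krt19. Krt18 had 14900 in Cy3 and 64000 in Cy5 with a ratio of 0.43 (scanner error 0.17), and 14 of its 28 Cy5 pixels were saturated. Both Krt8 spots were saturated in Cy5, reading 65200 against 16300 and 15700 in Cy3, so their ratios after loess, 0.32 and 0.37, are lower bounds under that scaling and put Krt8 at least 1.24-fold brighter in Cy5. Krt23 had 2660 and 8830 and a ratio of 0.40. Krt80, a keratin found in many epithelia, had 184 and 139 and a ratio of -0.43 within its scanner error of 0.67. The loess curve takes more from bright spots: median centring raised spots like Krt8 by 1.26 (25 spots) and spots like Krt20 by 1.04 (87 spots). With that centring Krt18 reached 1.68, Krt8 1.60 and Krt23 1.33, all past 2-fold.

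The promoters of Krt7 and Krt20 are shown because both genes were Cy5-high in stomach while most of their chromosomal neighbours were not. Each is the 250 bases before the start of the gene in RefSeq, assembly GRCm38.p6, written along the gene, with capitals for matches on either strand to the GC box (GGGCGG) or the TATA box (TATAAA).
Krt7, chr15:101412153-101412402, plus strand: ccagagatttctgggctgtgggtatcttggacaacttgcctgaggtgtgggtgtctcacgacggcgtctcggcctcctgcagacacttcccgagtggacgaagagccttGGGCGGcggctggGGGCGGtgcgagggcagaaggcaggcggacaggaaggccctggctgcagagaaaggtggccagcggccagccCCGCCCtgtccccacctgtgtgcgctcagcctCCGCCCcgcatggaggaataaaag
Krt20, chr11:99438154-99438403, minus strand: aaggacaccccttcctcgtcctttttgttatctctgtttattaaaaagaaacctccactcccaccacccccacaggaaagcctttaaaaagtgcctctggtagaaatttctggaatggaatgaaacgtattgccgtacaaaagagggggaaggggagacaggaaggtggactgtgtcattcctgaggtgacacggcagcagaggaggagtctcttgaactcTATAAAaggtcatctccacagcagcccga
The Krt7 stretch holds 4 GC boxes and no TATAAA. Krt20 has TATAAA 29 bases before the start and no GC box. Of 32851 mouse promoters of the same length, 32.7% hold the GC box and 12.4% the TATA box. Among 29 promoters of the 28 keratin genes matched, 2 hold the GC box, those of Krt7 and Krt75, and 14 the TATA box. These matches describe letters in the window and nothing about what binds there.

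All 3 basal squamous keratins were Cy3-high in stomach. Krt5, the type II keratin of basal cells, had 3270 in Cy3 and 1770 in Cy5 and a ratio of -2.11 (4.32-fold, scanner error 0.23). Krt15, a type I keratin of basal and progenitor cells, had 1030 and 478 and a ratio of -2.06 (scanner error 0.24). Krt14, the type I partner of Krt5, had 1790 and 1270 and a ratio of -1.61 (scanner error 0.21). With median centring the median of the 3 was -1.30, and Krt14 fell short of 2-fold at -0.89. The same probes in liver had at most 551, with ratios near 0.

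Of the differentiated squamous keratins, 9 of 13 were Cy3-high in stomach and none Cy5-high. Krt4, the type II keratin of mucosal squamous epithelium such as forestomach and oesophagus, had the largest keratin ratio on the array at -3.84 (14.3-fold, scanner error 0.40), with 1150 in Cy3 and 154 in Cy5. Krt10, the type I keratin of cornifying epithelium, followed at -3.04 (SD 0.18), and both of its probes showed it, at 5630 against 1510 and 996 against 249. Krt78, another type II keratin, had 448 and 258 and a ratio of -1.48. Together with the basal keratins, 12 of 16 squamous keratins were Cy3-high, with a median of -1.52.

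The partners Krt13 and Krt1 were split between their probes. Of Krt13, the type I partner of Krt4, probe A_52_P430886 had 1690 in Cy3 and 316 in Cy5 and a ratio of -3.44. Probe A_51_P307964 of the same accession had 1090 and 2930 and a ratio of 0.32, a gap of 3.76. The file places the former at chr11:100228435-100228673 and the latter at chr11:100230196-100230255, in a genome build not given in the labels or headers. The mean of both, -1.56 with an SD of 2.66, therefore describes neither probe. Krt1, the type II partner of Krt10, behaved alike: probe A_51_P416669 had 1000 and 281 with a ratio of -2.75, and probe A_51_P207237, matched through a synonym, had 218 and 260 with -0.01. In both genes the probe of larger ratio had a Cy3-high value like the keratin partner of that gene.

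The keratins of injured or rapidly growing epithelium were also Cy3-high. Krt16 had 2310 in Cy3 and 1340 in Cy5 (-1.94, scanner error 0.22), Krt6b had 422 and 182 (-1.84), and Krt6a had 402 and 230 (-1.44). Krt17 was the smallest at -1.04, from 813 and 752, and with median centring it was -0.46. Krt6a and Krt6b are near-identical in sequence, as are parts of Krt14, Krt16 and Krt17, so a probe may read more than its own gene. The 4 differentiated squamous keratins that stayed under 2-fold were Krt9 (-0.25), Krt76 (-0.11), Krt2 (0.06) and Krt12 (0.23), keratins of footpad, palate, epidermis and cornea. Their probes that passed the filters had between 129 and 313 in Cy5 on the stomach array.

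**Figure D2:**
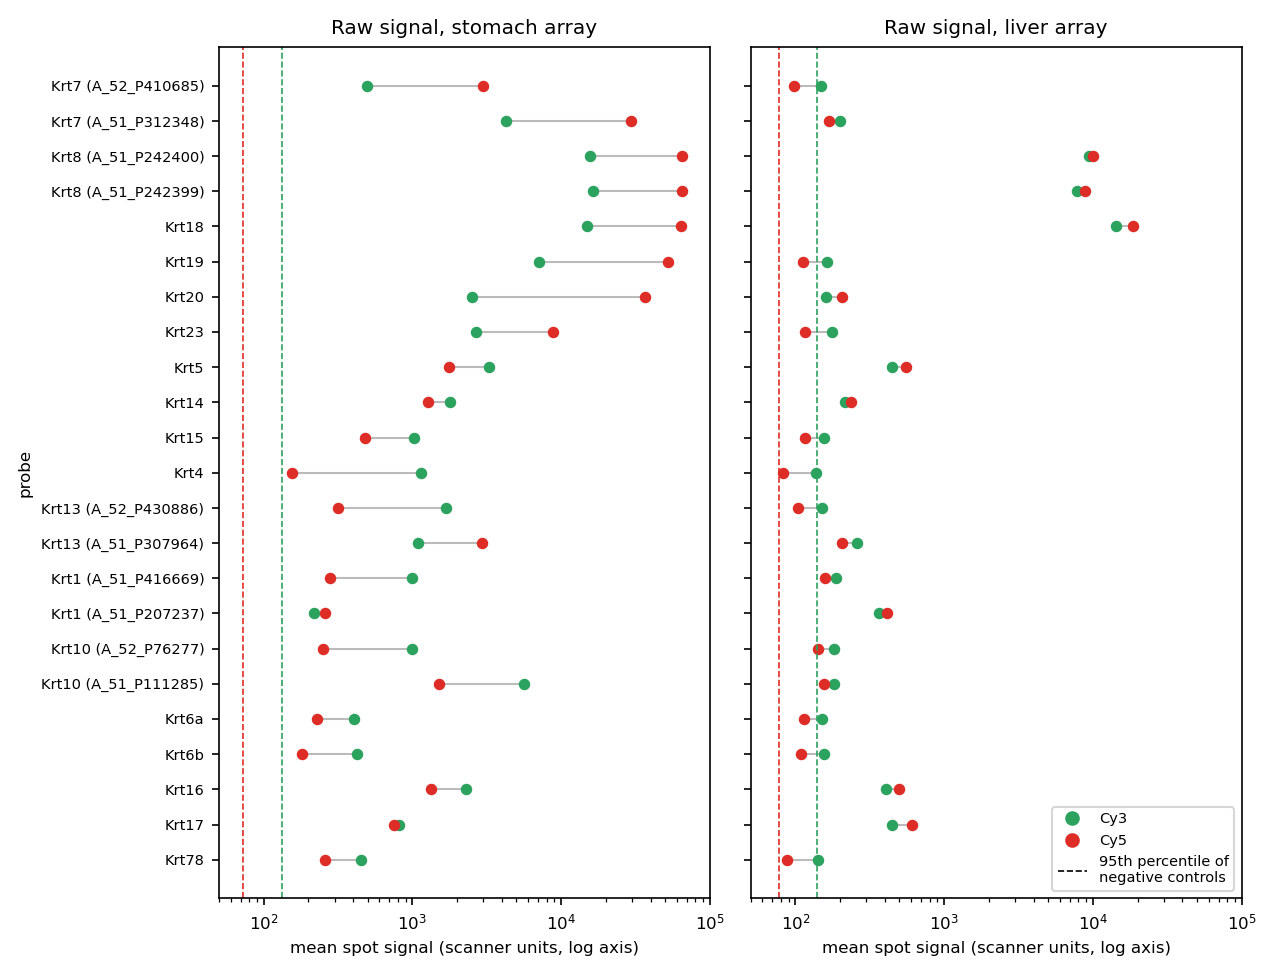
Mean spot signal of the probes of 18 simple and squamous keratins in Cy3 (green) and Cy5 (red) on a log axis, in stomach (left) and liver (right), with dashed lines at the 95th percentile of the negative controls of each channel. Simple keratins reach 65200 in the Cy5 channel of stomach, and the squamous keratins shown are brighter in Cy3 except for 1 probe each of Krt13 and Krt1. In liver Krt8 and Krt18 are by far the brightest, and the next, Krt17, has 443 in Cy3 and 605 in Cy5.

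The promoters of Krt5, Krt10 and Krt13 are given for the same 250 bases. Krt5 and Krt10 were Cy3-high in stomach, and of Krt13 1 of 2 probes was. Capitals mark the TATA box and the AP-1 element (TGANTCA, the same on both strands). RefSeq lists Krt13 with 2 starts, and both are shown because its 2 probes disagreed.
Krt5, chr15:101712906-101713155, minus strand: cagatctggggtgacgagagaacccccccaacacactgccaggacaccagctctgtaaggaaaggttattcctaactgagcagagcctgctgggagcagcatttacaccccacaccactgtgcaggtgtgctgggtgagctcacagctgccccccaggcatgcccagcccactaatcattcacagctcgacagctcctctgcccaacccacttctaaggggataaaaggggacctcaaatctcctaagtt
Krt10, chr11:99389365-99389614, minus strand: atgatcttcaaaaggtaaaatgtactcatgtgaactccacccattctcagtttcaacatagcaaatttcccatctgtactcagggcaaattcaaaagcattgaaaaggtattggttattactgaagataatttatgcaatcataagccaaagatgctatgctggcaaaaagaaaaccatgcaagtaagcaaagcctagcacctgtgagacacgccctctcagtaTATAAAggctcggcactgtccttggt
Krt13 first start, chr11:100121567-100121816, minus strand: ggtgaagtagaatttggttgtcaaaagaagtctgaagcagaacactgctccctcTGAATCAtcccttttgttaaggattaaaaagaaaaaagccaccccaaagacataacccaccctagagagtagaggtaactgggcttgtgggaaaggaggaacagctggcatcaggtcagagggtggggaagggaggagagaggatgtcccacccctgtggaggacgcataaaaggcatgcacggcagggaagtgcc
Krt13 second start, chr11:100120578-100120827, minus strand: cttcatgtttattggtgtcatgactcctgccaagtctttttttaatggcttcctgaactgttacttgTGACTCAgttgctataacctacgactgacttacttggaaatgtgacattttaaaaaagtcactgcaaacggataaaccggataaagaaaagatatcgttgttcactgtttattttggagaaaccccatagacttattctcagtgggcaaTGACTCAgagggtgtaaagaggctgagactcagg
Krt10 has TATAAA 26 bases before the start. The AP-1 element lies 196 bases before the first start of Krt13, and 183 and 34 bases before the second. It occurs in 6.75% of the 32851 promoters, and in no other keratin promoter of those matched. Krt5 has none of the 3 motifs in this window, which says only that these letters are not in it. Which Krt13 start each probe reads was not tested.

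Hair and other keratins gave no ratio of 2-fold in stomach, 0 of 18, and ranged from -0.17 to 0.25. Krt25, Krt31, Krt33a and Krt87 were well above background in 1 channel only. The hair keratins with the highest Cy5 signals in stomach were Krt35 (448 in Cy3 and 733 in Cy5, ratio -0.04) and Krt84 (266 and 390, ratio 0.11). Krt82 did not pass the filters on either array, and Krt25 and Krt80 passed in stomach only.

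By gene means, keratin partners lay on the same side in stomach. By single probes this did not hold for Krt4 with Krt13, since probe A_51_P307964 of Krt13 was at 0.32 against -3.84 for Krt4. Probe A_51_P207237 of Krt1 was at -0.01 against -3.04 for Krt10. Krt8 and Krt18 were both brighter in Cy5, and with saturation on both the gap between them was not measured. Krt7 and Krt19 gave 1.5 and 1.29, a gap of 0.22 against 0.32. Krt5 and Krt14 gave -2.11 and -1.61, a gap of -0.50 against 0.31, and Krt6a and Krt16 gave -1.44 and -1.94, a gap of 0.51 against 0.36. For Krt4 with Krt13 and Krt1 with Krt10 the combined errors, 2.69 and 1.95, reflect the discordant probes. These errors are those of single spots or probe pairs and not of mice.

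The order along the chromosomes did not follow this division. On chromosome 11, where the type I genes lie together, Krt19 (1.29) sits between Krt15 (-2.06) and Krt9 (-0.25), with Krt13 on the far side of Krt15 and Krt14, Krt16 and Krt17 beyond Krt9. Krt10 (-3.04), Krt12 (0.23) and Krt20 (2.41) are neighbours there as well. On chromosome 15, Krt8 and Krt18 (0.34 and 0.43) end the cluster next to Krt78 (-1.48), and Krt7 (1.5) lies near the other end beside Krt80 (-0.43). Krt6b, Krt6a and Krt5 stand side by side and were all Cy3-high.

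**Figure D3:**
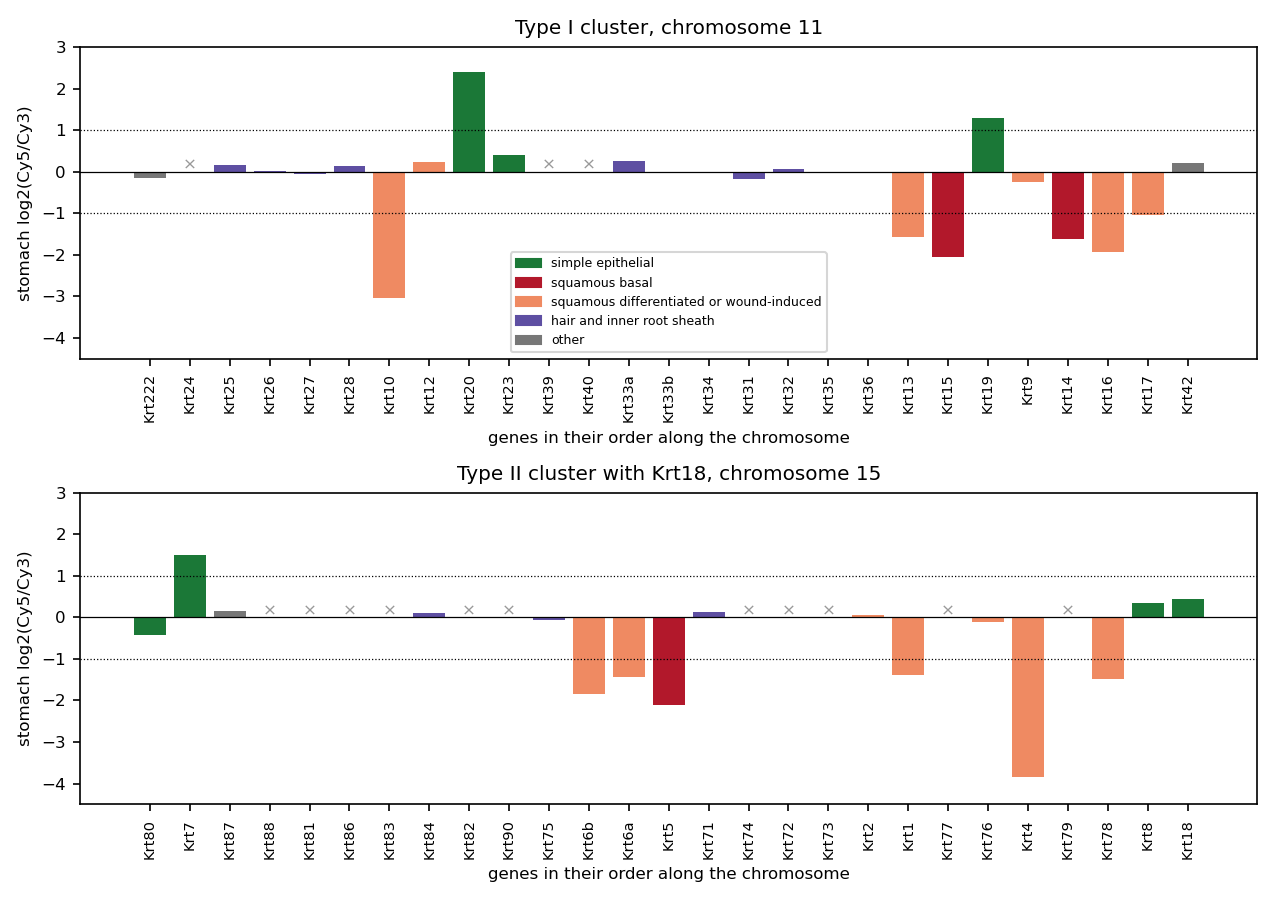
Stomach log2 ratio of Cy5 over Cy3 of keratin genes in their RefSeq order on chromosome 11 (type I) and chromosome 15 (type II with Krt18), evenly spaced, with dotted lines at 2-fold and a cross where no value was measured. Krt19 at 1.29 points up between the downward bars of Krt15 and Krt14, and Krt20 at 2.41 stands close to Krt10 at -3.04.

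Other genes of squamous epithelium moved with the squamous keratins in stomach. Of 14 non-keratin markers, whose median was -2.20, 10 were Cy3-high and 1 Cy5-high, beside 1.41% and 0.873% of all genes. They had median signals of 703 in Cy3 and 223 in Cy5. Lor, a protein of the cornified envelope, was at -4.20 (scanner error 0.36), while Ivl, another, was at 1.16 (scanner error 0.66). In liver none of the 14 was 2-fold apart. Markers of gastric glands went the same way in stomach, at a median of -2.59, with 6 of 10 Cy3-high and 1 Cy5-high, led by Chia1 (-5.26). Smooth muscle markers had 3 of 5 Cy3-high and a median of -1.99. How far the tissue pieces differed in these layers, and its part in the keratin values, was not tested.

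Most genes that anchor keratin filaments did not reach 2-fold in stomach, where 1.41% of all measured genes were 2-fold brighter in Cy3. Of 17 desmosome genes 1 was Cy3-high, Pkp1 (-2.43, scanner error 0.26), a plaque protein of squamous cells. The median was -0.15, and Dsp, which ties keratins to the desmosome, was at -0.15 (SD 0.17, 4 probes). Of 9 hemidesmosome genes 1 was Cy3-high, the basal cell collagen Col17a1 (-2.23, SD 1.53), and the median was 0.56. Plec, the linker of keratins to the hemidesmosome, was at 0.19. No member of either list was 2-fold apart in liver, where Dsp was at -0.04 and Plec at 0.02.

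Among regulators, 2 of 16 squamous factors were Cy3-high in stomach, beside 1.41% of all genes, with a median of -0.25. They were Trp63, the master factor of squamous basal cells (-1.62), and its relative Trp73 (-1.46), but the probes of each disagreed, with SDs of 2.19 and 1.99. None of 15 glandular and intestinal factors was 2-fold apart (median 0.07), and Cdx2 and Sox9 were at 0.06 and -0.26. Of 13 other intermediate filament genes, 2 were Cy3-high, the muscle filaments Des (-1.99) and Synm (-1.60), and Vim, the filament of mesenchyme, was at -0.03. In liver none of these lists had a 2-fold gene, and Vim was at 0.68 and Trp63 at 0.48 (SD 0.58).

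For lung the values came from the authors' deposited table alone, which starts at 2-fold, so a keratin outside it has no value here and may still have differed. Of the 50 keratin spots 7 stand in the authors' deposited up list (14.0%, against 5.51% of all gene spots) and 1 in the down list (2.0%, against 9.78%). The up list held 3 of 9 simple, 3 of 18 differentiated squamous and 1 of 17 hair keratin spots, and the down list 1 differentiated squamous spot. None of the 3 basal spots was listed in either direction. Unlisted among the simple keratin genes were Krt8, Krt18, Krt20 and Krt80.

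Krt19 led the lung list. In the authors' deposited table its log2 ratio was 3.69 (12.9-fold). Krt7 followed among the simple keratins with 2.17 in that table, through 1 of its 2 probes, and Krt23 had 2.11. The deposited ratios did not pass through the loess used here. By the scanner ratios these same spots had 1.38, 1.77 and 0.42 on the stomach array, and -0.17, -0.05 and -0.53 on the liver array. After loess they had 1.29, 1.68 and 0.40 in stomach, and -0.08, -0.02 and -0.27 in liver. Krt19 and Krt7 were thus past 2-fold in the same channel in lung and stomach, while Krt20 passed in stomach and was not listed for lung.

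Among the differentiated squamous keratins, Krt13 had 2.68 in the authors' deposited up list for lung through probe A_51_P307964, the probe that was not Cy3-high in stomach (0.32), and its other probe was not listed. Krt12 had 1.77 in the deposited table, and the hair keratin Krt84 had 1.38. Krt10 entered through probe A_52_P76277 at 1.01 in the deposited table, close to its 2-fold start, and the other Krt10 probe was not listed. On the stomach array probe A_52_P76277 gave -2.91 after loess and -3.36 by the scanner ratios. Krt2 was the keratin in the authors' deposited down list, at -1.49, with the probe listed as up in liver.

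**Figure D4:**
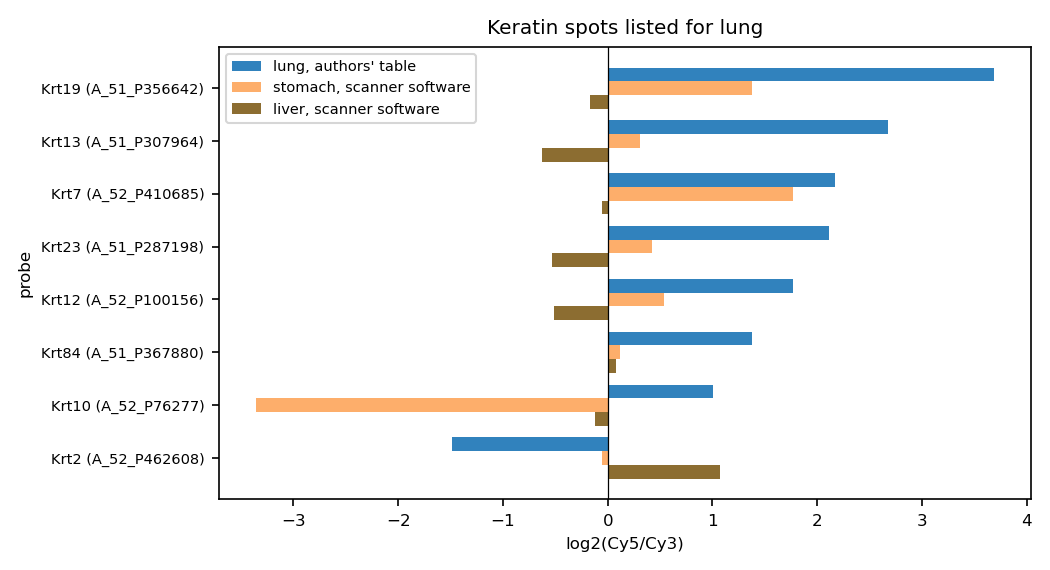
Log2 ratio of Cy5 over Cy3 of the 8 keratin spots in the authors' deposited lung lists (blue), with the scanner software ratios of the same spots on the stomach (orange) and liver (brown) arrays, 1 array per organ. Krt19 and Krt7 point to Cy5 in lung and stomach (3.69 and 1.38 for Krt19), while the Krt10 probe is at 1.01 in lung and -3.36 in stomach.

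Other lists in lung give the setting of these keratins. Over all gene spots, 5.51% stood in the up list for lung and 9.78% in the down list. By the authors' deposited table, 8 of 10 lung epithelium spots were in the down list and none in the up list, and 7 of 11 spots of bile duct genes were in the up list, with Epcam at 2.86. The non-keratin squamous markers had 5 of 19 spots up, among them Ivl at 4.09, and 2 down. Desmosome genes had 8 of 32 spots up and none down, with Perp, a desmosomal membrane protein, at 3.06 and Dsp at 1.54 in the deposited table. Hemidesmosome genes had 8 of 26 up, led by Itgb4 at 2.88, and 1 down, Col17a1 at -1.06. Squamous factors were split, 5 of 30 spots up and 6 down, and the other filaments Vim and Des were in the authors' deposited down list at -2.78 and -2.47. The part of these shifts in the keratin values was not tested.

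The authors' deposited lists for stomach hold 5 keratin spots as up, of 4 genes, and 13 as down, of 12 genes (4.0% and 3.33% of all gene spots are in those lists). The up spots were those of Krt20, Krt7, Krt19 and Krt18, and the 12 down genes were the 12 squamous keratins named above. Their ratios are those of the scanner software, where Krt4 stood at -4.62 and Krt20 at 2.48. Krt8, with both spots saturated, is in neither list.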

How the data were processed

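RNA from liver, stomach and lung was hybridised on 2-colour Agilent arrays, 1 array per organ, with 500 ng of total RNA amplified per sample, per the labels' protocols. Per the submitters' processing notes, spots were quantified in Agilent Feature Extraction 8.5.1.1. Per the file headers, the deposited intensity columns hold unnormalized spot and background signals and dye-normalized processed signals. The deposited log10 ratio is Cy5 over Cy3 processed signal, per the file headers. Its deposited error score and p-value come from the error model of the scanner software for single spots, per the file headers. The authors' deposited table lists log10 ratios by spot number, and served for lung, whose scanner values were not analysed here. The lung spots were assumed to follow the design of the other arrays. The table's 4 signal columns stack several samples and were not used. Listed values for liver and stomach equalled the scanner ratios of those spot numbers (951 and 3042 spots).

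Liver and stomach signals went through normexp (offset 50) and loess, both in limma 3.58.1 (R 4.3.3). Control spots had weight 0. The offset pulls ratios of dim probes towards 0. Control spots and outlier flags were left out, and so were probes dim in both channels or saturated in both. Probes of a gene were averaged. Later steps used Python 3.11.15, numpy 2.4.6 and pandas 2.3.3. The normalization was tested on simulated data. Names and promoters came from RefSeq tables of GRCm38.p6.

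With no replicates no test was made. Precision is limited by having 1 array per organ. Genes were counted at 2-fold. Named were keratins 2-fold apart or listed for lung, a fixed set of main keratins, and of each related list up to 3 of the largest 2-fold genes with Trp63, Dsp, Plec, Vim, Des, Cdx2 and Sox9; other keratins were named for their values. The members, classes and lists were chosen with earlier results of these data known. Alternatives were the offset, the scanner ratios, median centring, the dim, saturation and outlier filters, the choice of probe, and for lung a 4-fold threshold.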

Additional observations from a re-analysis of the deposited data

Results flagged for a closer look

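Probe A_52_P76277 of Krt10, a keratin of cornifying epithelium, lay on opposite sides in lung and stomach. Its log2 ratio of Cy5 over Cy3 was 1.01 in the authors' deposited lung table, close to the 2-fold start of that table. On the stomach array it was -2.91 after loess and -3.36 by the scanner ratios. The other Krt10 probe was not listed for lung. With 1 array per organ the difference was not tested.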

How the results depend on the processing

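In stomach, 9 squamous keratins were Cy3-high at 2-fold under all 9 other settings run: Krt1, Krt10, Krt15, Krt16, Krt4, Krt5, Krt6a, Krt6b and Krt78. Krt20, Krt7 and Krt19 were Cy5-high under all of them as well. The Krt1 call rests on 1 of its 2 probes, at -2.75, while the other gave -0.01. In liver the Cy5 count, and with it the count in either direction, was 1 with a normexp offset of 10 (Krt20) and 3 with the scanner ratios (Krt20, Krt222 and Krt33a, the latter pair not well above background in Cy3). In stomach the Cy5 count was 6 with the scanner ratios, adding the dim Krt25, Krt33a and Krt87, and 6 with median centring, adding Krt8, Krt18 and Krt23. The median of differentiated squamous keratins was -1.74 with scanner ratios and -1.01 with median centring. The simple median was 1.68 with median centring and 0.86 without saturated spots, which leaves out Krt8, and the basal median was -1.30 with median centring. Krt13 turned to 0.32 when its brightest probe stood for the gene, since its probes disagree. In lung, 4 spots were up and 0 down at 4-fold. Of the values of single named genes under other settings, 139 in stomach stayed within their error, 27 moved and 1 reversed, and in liver 159 stayed and 8 moved. Most of these settings change only which spots or probes are kept, so a gene with 1 probe keeps its value there by construction. The values that stayed are therefore no measure of stability. All moved values came with the offset of 10, the scanner ratios or median centring. Taking the probe of largest absolute ratio, an alternative chosen after seeing the data, gave 3 and 12 keratins in stomach. No paired analysis was possible because each organ had 1 array. Keratins near the negative controls, most in liver, have ratios that these arrays measure poorly.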
